A study of Homo sapiens with 6 samples.

Results

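The genes described here are 31 genes grouped as targets of the transcription factor p53, picked by their symbols from a count table of 26490 genes, in which all 31 have a row. They were followed in SW403, an established human colon adenocarcinoma line, in 3 control libraries and 3 libraries with IRS2 knockdown. Per the labels, the control cells are of genotype WT (short name NS) and the other cells of genotype IRS2_knockdown (short name IRS2KO), and all cells were seeded in triplicate for 24 h in DMEM with serum and left untreated. IRS2 encodes insulin receptor substrate 2, an adaptor between the insulin and IGF1 receptors and PI3-kinase signalling, and the series title places it in the study of brain metastases of colorectal cancer. The labels do not say how IRS2 was lowered or whether the 3 libraries of a group come from separately made lines, so p-values measure the spread between these libraries, which may be partly technical.

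p53 is kept low in unstressed cells by MDM2, a ubiquitin ligase that marks it for degradation, and by the related protein MDM4, which blocks its activation domain. When DNA damage or other stress frees p53, it binds paired response elements and raises genes for cell cycle arrest, cell death, DNA repair and metabolism, together with MDM2 itself, which closes a feedback loop. Many of these genes also have basal transcription and respond to other factors, FOXO proteins downstream of insulin signalling among them. A member that is usually named as a partner of p53 in double-strand break repair and not as its target is TP53BP1.

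Total counts ran from 11816973 to 12585013 in control and from 14329348 to 18114656 in knockdown libraries, so every knockdown library was deeper. IRS2 was at 32.04, 34.6 and 31.8 counts per 1000000 (CPM) in control and 13.1, 12.4 and 12.1 CPM in knockdown, with no overlap (log2 fold change -1.39 ± 0.07 SE, adjusted p 3.12e-11). CPM values here are scaled by TMM factors (trimmed mean of M-values), and adjusted p is the Benjamini-Hochberg value over the 13832 genes tested in edgeR's quasi-likelihood test, with 0.05 as the threshold. Of 13 colon epithelial markers, 6 were tested, 1 was higher and 2 were lower, and the 13 summed to between 2501 and 2607 CPM in control and between 2381 and 2495 CPM in knockdown. KRT8 averaged 1095 ± 17.6 CPM in control against 1054 ± 28.2 CPM in knockdown (SD, n = 3 each), while KRT20, CDX1 and CEACAM5 had 0 counts in all libraries and CDH1, CDH17, LGALS4 and GPA33 had means of 0.5 to 3.17 counts. The 12 markers of other cell types summed to between 8.26 and 26.5 CPM in control and between 6.503 and 7.96 CPM in knockdown, with PECAM1 and ALB at 0. EPCAM fell from 39.8 ± 1.32 to 34.3 ± 1.54 CPM and KRT19 from 228 ± 10.9 to 164 ± 8.92 CPM, and COL1A1 and COL3A1 were lower too (SD, n = 3 each). CDX2, the colon epithelial marker that rose, went from 76.9 ± 2.08 to 84.6 ± 2.71 CPM (SD, n = 3 each). The part of these shifts in the results was not tested.

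The p53 targets moved in both directions and mostly by less than 1.5-fold. Of the 31 genes, 29 passed the filter on low counts, and 12 of these were past the threshold, 7 higher and 5 lower in knockdown. FAS, TNFRSF10B, ZMAT3, BTG2, AEN, TRIAP1 and TIGAR rose, and MDM2, MDM4, XPC, DDB2 and CMBL fell. Across all genes tested, 38.5% passed, 19.3% higher and 19.2% lower, so the share of members that passed, 41.4%, lay near that of all genes. Their median log2 fold change was 0.03, against -0.0039 over all genes tested. At least 1.5-fold changes were seen in 3 of the 12, beside 1177 of the 5329 genes that passed among all genes tested. With library size alone or upper-quartile factors in place of TMM, the split was 5 higher and 7 lower, as TRIAP1 and TIGAR dropped below the threshold and BAX and FBXO22 passed it. All genes tested shifted the same way, from 2676 higher and 2653 lower to 2206 and 3198 with library size alone and to 2354 and 3012 with upper-quartile factors. In these data fewer cells with a transcript and less RNA per cell cannot be told apart.

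**Figure D1:**
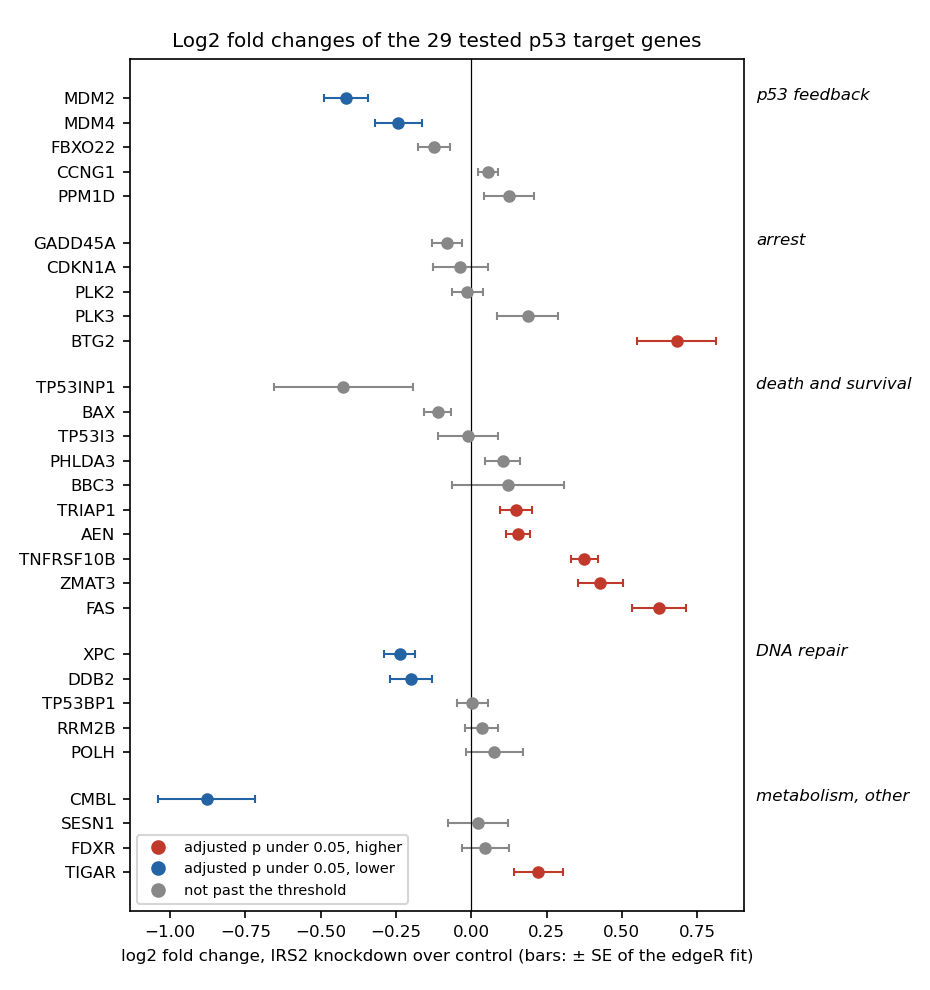
Log2 fold change of knockdown over control for the 29 tested p53 targets, grouped by role, with bars of 1 SE from the edgeR fit. Red and blue points passed the adjusted p threshold of 0.05, 7 higher and 5 lower, and grey points did not. BTG2 lies highest at 0.68 and CMBL lowest at -0.88.

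The response element that p53 binds directly is shown first for the genes that carry a close match at an annotated start, since these genes did not share a direction. RefSeq promoter windows of GRCh38.p14, 250 bases before to 50 after a start, matched 23 of the 31 members. They were searched for the 20-base p53 element, which is a pair of 10-base units with no spacer. The C and G at the core of each unit were required, up to 2 other mismatches were allowed, and the element reads the same on either strand. It was found for 4 of the 23 members with a window, FAS, AEN, MDM2 and DDB2. Among all genes with a window it was found for 98 of 27305 (0.359%), or in 0.285% of all 35116 windows. These 4 members were all among the 12 genes past the threshold, FAS and AEN higher and MDM2 and DDB2 lower. Over all genes tested 38.5% passed, and a link between the element and a change in level was not tested. Capitals mark the closest match of each gene, and any further or looser match in the lower-case flanks is not marked. Each sequence is on the plus strand, 5′ to 3′, with the position of its exact match on GRCh37. An element at these letters is a description of the sequence, and p53 binding was not measured.
FAS, chr10:90751061-90751090, starting at -122 from a RefSeq start: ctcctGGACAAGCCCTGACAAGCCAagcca
AEN, chr15:89164497-89164570, starting at -34: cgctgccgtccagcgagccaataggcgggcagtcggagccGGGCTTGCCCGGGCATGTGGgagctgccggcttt
MDM2, chr12:69202663-69202762, starting at -94: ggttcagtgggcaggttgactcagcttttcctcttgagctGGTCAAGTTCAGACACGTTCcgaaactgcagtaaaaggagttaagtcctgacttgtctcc
DDB2, chr11:47236515-47236544, starting at -5: gctccAAGCTGGTTTGAACAAGCCCtgggc
The MDM2 element lies in an intron of all 6 annotated transcripts that span it in GENCODE version 44. The FAS element lies in an intron of 10 of 12 such transcripts and in an exon of the other 2, and the DDB2 element in an intron of 2 of 3 and in a UTR exon of the other. The AEN element lies outside the transcripts, just before the gene. The closest windows of SESN1 and FDXR held the element with 3 mismatches. The other members with a window had more, except BBC3, whose windows held no stretch with the required C and G. Elements outside the windows or with a spacer between the units were not searched for, so these members may carry them.

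Among the genes that feed back on p53, both direct inhibitors were lower after knockdown. They were 2 of the 5 feedback genes (40%), near the 38.5% that passed over all genes tested. MDM2 (chromosome 12, 69201957 to 69239324, GRCh37) was at 29.2, 29.5 and 28.0 CPM in control and 24.0, 21.1 and 20.2 CPM in knockdown. All knockdown libraries lay below all control libraries, and replicate 1 was the closest to control. The log2 fold change of MDM2 was -0.42 ± 0.07 (SE), a 1.33-fold fall, with an edgeR adjusted p of 0.000132. An unnamed non-coding gene on the opposite strand covers 9.5% of the exonic length of MDM2, and a pseudogene on the same strand 5.3%. Neither was analysed here. A protein-coding gene with the symbol CPM, on the opposite strand over 1.6% of that length, fell on a mean of 10.3 counts. Its log2 fold change was -1.14 ± 0.35 (SE; edgeR adjusted p 0.0157). MDM4 (chromosome 1, 204485507 to 204527248), the relative of MDM2 without ligase activity of its own, was at 28.9, 25.2 and 29.1 CPM in control and 23.1, 21.3 and 25.7 CPM in knockdown. The groups of MDM4 overlapped, as the highest knockdown library exceeded the lowest control library. Its log2 fold change was -0.24 ± 0.08 (SE), with an edgeR adjusted p of 0.0195 that ranged from 0.00326 to 0.116 over 19 alternatives. MDM4 was not past the threshold when control replicate 1 (0.0804), control replicate 3 (0.0856) or knockdown replicate 2 (0.116) was left out.

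The other feedback genes did not pass. PPM1D, which encodes the phosphatase WIP1 that removes activating phosphates from p53, was at 16.8, 18.1 and 20.03 CPM in control and 21.9, 18.5 and 19.7 CPM in knockdown, with overlap and an interval of the log2 fold change from -0.05 to 0.30. CCNG1, cyclin G1, was the second most abundant member per transcript length and was at 170.5, 174 and 169.6 CPM in control and 176, 175 and 183 CPM in knockdown. Its 3 knockdown libraries all lay above the control libraries, but the log2 fold change was 0.06, with a 95% interval from -0.01 to 0.13. CCNG1 passed when length and GC of transcripts were corrected for (edgeR adjusted p 0.0202). FBXO22, an F-box protein that takes part in p53 turnover, was at 53.1, 56.0 and 58.3 CPM in control and 51.4, 53.6 and 48.7 CPM in knockdown, with overlap (edgeR adjusted p 0.0712). It passed when control replicate 1 was left out, with an edgeR adjusted p of 0.0389, and over 19 alternatives the value ran from 0.0270 to 0.272.

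Of the 5 genes that act in cell cycle arrest, BTG2 rose and the other 4 did not pass (20% past the threshold, beside 38.5% over all genes tested). BTG2 (chromosome 1, 203274619 to 203278730), an antiproliferative protein that recruits the mRNA deadenylation machinery, was at 4.71, 5.86 and 5.42 CPM in control and 7.94, 8.57 and 9.08 CPM in knockdown. Every knockdown library exceeded every control library. The log2 fold change of 0.68 ± 0.13 (SE), or 1.60-fold, was the highest of the members (edgeR adjusted p 0.00038), on counts of 60 to 162 per library. CDKN1A (chromosome 6, 36644237 to 36655114) encodes p21, the inhibitor of cyclin-dependent kinases through which p53 arrests the cycle. It was at 17.6, 15.7 and 16.1 CPM in control and 14.9, 15.0 and 18.1 CPM in knockdown, with the highest value of all in a knockdown library. Its log2 fold change was -0.04 ± 0.09 (SE), with a 95% interval from -0.23 to 0.15, or from 0.854 to 1.11 as a ratio of knockdown to control. GADD45A, a stress sensor in arrest and repair, was at 51.1, 53.3 and 52.3 CPM in control and 47.5, 48.2 and 52.3 CPM in knockdown, where replicate 3 overlapped the control libraries. The kinase gene PLK2 was at 51.2, 47.4 and 47.1 CPM in control and 46.2, 48.3 and 49.7 CPM in knockdown, also with overlap. PLK3, a kinase of the same family, was at 10.5, 9.26 and 9.18 CPM in control and 11.0, 10.5 and 11.4 CPM in knockdown (edgeR adjusted p 0.157). The 95% intervals of the log2 fold changes were -0.19 to 0.03 for GADD45A, -0.12 to 0.10 for PLK2 and -0.02 to 0.40 for PLK3.

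The death and survival genes held 5 of the 7 members that rose, and none of these 10 genes fell past the threshold, where 19.3% of all genes tested were higher and 19.2% lower. Whether this role differs from the other roles was not tested. Together the 10 genes summed to between 389 and 399 CPM in control and between 433 and 444 CPM in knockdown, of which TNFRSF10B, AEN and BAX make up the larger part. FAS (chromosome 10, 90750414 to 90775542), the receptor of FAS ligand, was at 12.5, 10.6 and 13.1 CPM in control and 19.6, 17.8 and 18.4 CPM in knockdown. The groups were well apart, with a log2 fold change of 0.62 ± 0.09 (SE), or 1.54-fold, and an edgeR adjusted p of 1.82e-05. The library kit named in the labels does not mark strand, so reads from genes that overlap on opposite strands cannot be told apart. On the opposite strand ACTA2 covers 10.7% of the exonic length of FAS and was at 3.28 ± 0.601 and 3.05 ± 0.557 CPM (SD, n = 3 each), and an unnamed non-coding gene that covers 25.7% was not analysed here. TNFRSF10B (chromosome 8, 22877646 to 22926544), the death receptor DR5 for the ligand TRAIL, was at 69.7, 77.2 and 75.6 CPM in control and 98.2, 94.2 and 96.2 CPM in knockdown. It had the smallest p of the members, with a log2 fold change of 0.38 ± 0.04 (SE), or 1.30-fold (edgeR adjusted p 2.04e-06). ZMAT3 (chromosome 3, 178677909 to 178790003), a zinc finger protein that binds RNA and alters splicing, was at 22.8, 20.6 and 22.9 CPM in control and 31.8, 30.6 and 27.0 CPM in knockdown. The log2 fold change of ZMAT3 was 0.43 ± 0.07 (SE; edgeR adjusted p 0.000144), again with no overlap between groups.

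AEN (chromosome 15, 89164568 to 89175512), an exonuclease that acts in apoptosis, was at 88.8, 91.8 and 89.5 CPM in control and 99.3, 101.4 and 100.1 CPM in knockdown. Its rise was small and even across libraries, with a log2 fold change of 0.16 ± 0.04 (SE; edgeR adjusted p 0.00352). TRIAP1 (chromosome 12, 120881767 to 120884187) encodes a small mitochondrial protein that restrains apoptosis. It was at 41.5, 44.6 and 39.97 CPM in control and 46.9, 46.1 and 47.0 CPM in knockdown. TRIAP1 had a log2 fold change of 0.15 ± 0.05 (SE), with an edgeR adjusted p of 0.0321 that ran from 0.00145 to 0.127 over 19 alternatives. It was not past the threshold without control replicate 1 (0.0855) or 3 (0.119), or without knockdown replicate 1 (0.0668), 2 (0.0629) or 3 (0.0641).

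The pro-apoptotic BCL2 family genes of the list did not rise. BAX, which forms pores in the mitochondrial outer membrane and was the most abundant member per transcript length, was at 107, 101 and 97.9 CPM in control and 96.7, 89.9 and 97.1 CPM in knockdown. The knockdown libraries of BAX all lay below the control libraries by a small margin (log2 fold change -0.11, 95% interval -0.21 to -0.02, edgeR adjusted p 0.0551). BAX passed the threshold in 6 of 19 alternatives, among them without control replicate 3 (0.0374) and without knockdown replicate 3 (0.0336), and its adjusted p ranged from 0.0164 to 0.295. BBC3, which encodes the BAX activator PUMA, was at 3.22, 3.96 and 5.76 CPM in control and 4.64, 4.43 and 4.93 CPM in knockdown. The spread of the BBC3 control libraries was wider than the difference, and the 95% interval of its log2 fold change ran from -0.27 to 0.51. PHLDA3, which competes with the kinase AKT for membrane lipids, was at 31.96, 31.4 and 29.8 CPM in control and 32.2, 33.5 and 34.4 CPM in knockdown, just apart, with a 95% interval from -0.02 to 0.23. TP53I3, a quinone oxidoreductase, was at 13.9, 14.2 and 10.9 CPM in control and 12.9, 12.7 and 13.2 CPM in knockdown, where all 3 lay within the control range (interval -0.22 to 0.20). TP53INP1, a cofactor in p53 phosphorylation and autophagy, was at 3.09 ± 0.671 and 2.26 ± 0.583 CPM (SD, n = 3 each), with an interval of its log2 fold change from -0.91 to 0.06. NDUFAF6, on the opposite strand over 4.0% of the exonic length of TP53INP1, was lower in knockdown with a log2 fold change of -0.43.

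**Figure D2:**
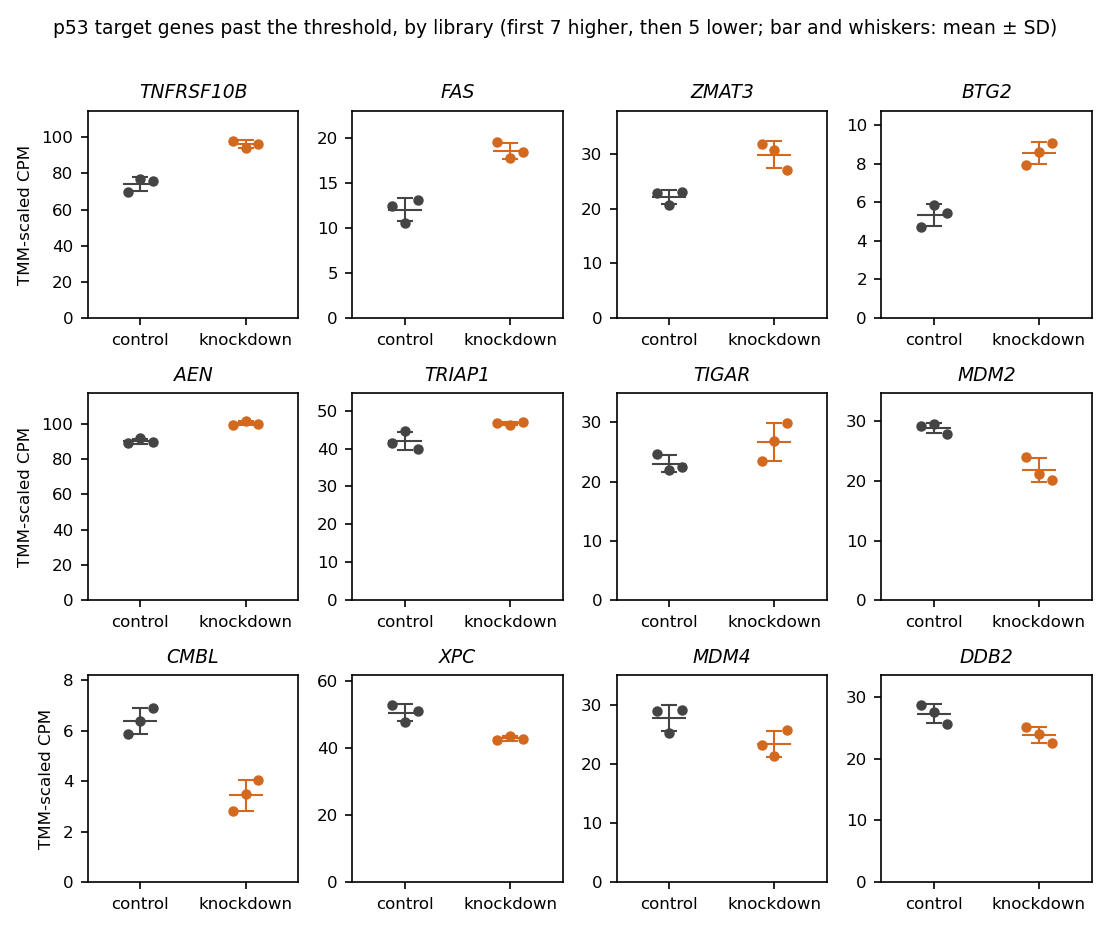
TMM-scaled CPM in each library for the 12 members past the threshold, control (dark) beside knockdown (orange), with mean and SD and every axis starting at 0. For TNFRSF10B, FAS, ZMAT3, BTG2, AEN, TRIAP1, MDM2, CMBL, XPC and DDB2 the groups do not overlap, while for TIGAR and MDM4 they do.

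The DNA repair genes that fell were the damage sensors of nucleotide excision repair. They were 2 of the 5 repair genes (40%), near the 38.5% that passed over all genes tested. XPC (chromosome 3, 14186647 to 14220121), which recognises distorted DNA and starts this repair pathway, was at 52.7, 47.8 and 51.0 CPM in control and 42.3, 43.6 and 42.5 CPM in knockdown. No libraries overlapped, and the log2 fold change was -0.24 ± 0.05 (SE; edgeR adjusted p 0.00112). XPC-AS1, a non-coding gene on the opposite strand, covers 24.6% of the exonic length of XPC and was not analysed here. DDB2 (chromosome 11, 47236016 to 47260768), which hands ultraviolet lesions to XPC, was at 28.6, 27.5 and 25.6 CPM in control and 25.1, 23.9 and 22.4 CPM in knockdown. The groups of DDB2 lay side by side with a narrow gap (log2 fold change -0.20 ± 0.07 SE, edgeR adjusted p 0.0263). Its adjusted p ranged from 0.0128 to 0.126 over 19 alternatives and missed the threshold without control replicate 1 (0.108) or 2 (0.0833) and without knockdown replicate 2 (0.0596) or 3 (0.0987). POLH, the polymerase that copies past ultraviolet lesions, ran from 12.3 to 15.8 CPM in control and from 14.1 to 15.1 CPM in knockdown. RRM2B, a ribonucleotide reductase subunit that supplies nucleotides for repair, ran from 34.1 to 36.2 CPM in control and from 35.4 to 37.4 CPM in knockdown. TP53BP1 ran from 59.1 to 62.9 CPM in control and from 58.1 to 65.5 CPM in knockdown, so the groups of all 3 overlapped. The intervals of the log2 fold changes were -0.12 to 0.27 for POLH, -0.08 to 0.15 for RRM2B and -0.10 to 0.11 for TP53BP1. TUBGCP4, on the opposite strand over 28.8% of the exonic length of TP53BP1, had a log2 fold change of -0.17 (edgeR adjusted p 0.00826). Its part in the TP53BP1 values was not tested.

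Of the 4 metabolic genes tested, CMBL fell and TIGAR rose past the threshold (50%, beside 38.5% over all genes tested). CMBL (chromosome 5, 10275987 to 10308014), a cytosolic hydrolase, was at 5.89, 6.41 and 6.93 CPM in control and 2.81, 3.49 and 4.04 CPM in knockdown. The groups were separated, with a log2 fold change of -0.88 ± 0.16 (SE), a 1.84-fold fall, and an edgeR adjusted p of 0.000247. TIGAR (chromosome 12, 4416929 to 4469194), a phosphatase that slows glycolysis, was at 24.7, 22.0 and 22.5 CPM in control and 23.5, 26.8 and 29.9 CPM in knockdown. The groups of TIGAR overlapped through knockdown replicate 1, and its log2 fold change was 0.22 ± 0.08 (SE; edgeR adjusted p 0.0383). It was not past the threshold without control replicate 2 (0.133) or 3 (0.0924) or without knockdown replicate 2 (0.0823) or 3 (0.208), in a range of 0.00534 to 0.208 over 19 alternatives. An unnamed protein-coding gene on the same strand covers 18.1% of the exonic length of TIGAR and was not analysed here. FDXR, which passes electrons to mitochondrial P450 enzymes, ran from 15.8 to 17.6 CPM in control and from 16.8 to 17.7 CPM in knockdown. SESN1, a sestrin that restrains mTORC1, was at 11.9, 13.5 and 10.5 CPM in control and 12.4, 12.2 and 12.1 CPM in knockdown, within the control range. Their log2 fold changes had intervals of -0.12 to 0.21 and -0.18 to 0.23.

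The remaining members were too low for the test. SPATA18, which takes part in mitochondrial quality control, had 16, 8 and 13 counts in control and 1, 3 and 8 in the deeper knockdown libraries, or 0.992 ± 0.322 and 0.232 ± 0.195 CPM (SD, n = 3 each). Its groups did not overlap in CPM, and with no filter on low counts its log2 fold change was -1.98 ± 0.51 (SE; edgeR adjusted p 0.000601). TRIM22, an antiviral gene that interferon and p53 induce, had 0 counts in the 3 control libraries, which allows up to 0.0812 CPM for counting error alone, and 1 count in knockdown.

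The groups of 13 of the 29 tested members did not overlap in TMM-scaled CPM, 8 higher and 5 lower in knockdown. Over all genes tested this held for 47.6%, 23.7% higher and 23.8% lower. With library size alone 6 members were higher and 7 lower in this way, as PHLDA3 and CCNG1 overlapped and GADD45A and FBXO22 became separated, beside 19.6% higher and 28.8% lower over all genes tested. In TMM-scaled CPM, PHLDA3, CCNG1 and BAX were separated without passing the edgeR threshold. Levels between genes were compared as CPM per kilobase of 1 transcript each. On that scale the control levels ran from 128 for BAX, 70.1 for CCNG1 and 38.7 for GADD45A to 0.551 for TP53INP1, 0.224 for SPATA18 and 0 for TRIM22. CDKN1A ranked 13 of 31 at 7.77, MDM2 ranked 19 at 3.86 and BTG2 ranked 26 at 1.95. In knockdown BTG2 ranked 22 at 3.13 and MDM2 ranked 23 at 2.91, so these changed places, while BAX and CCNG1 kept the top ranks.

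**Figure D3:**
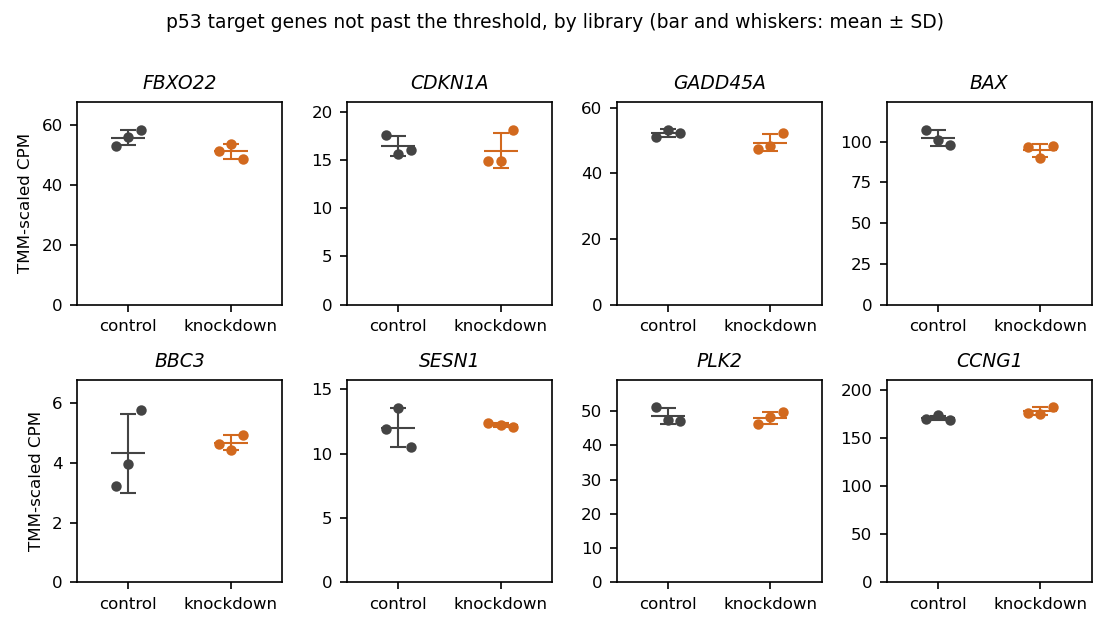
TMM-scaled CPM by library for 8 members that did not pass the threshold, control (dark) and knockdown (orange), with mean and SD and axes from 0. The CDKN1A values run from 15.7 to 17.6 CPM in control and from 14.9 to 18.1 CPM in knockdown, while those of BAX and CCNG1 are just apart.

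Other genes of the pathway were read from lists written from general knowledge. Of 38 further p53-induced genes, 34 were tested, and 10 were higher and 8 lower past the threshold (9 and 11 with library size alone). The share that passed was 52.9%, beside 38.5% over all genes tested (19.3% higher and 19.2% lower). CD82, a tetraspanin that suppresses metastasis, rose from 20.5 ± 1.41 to 41.1 ± 1.98 CPM (SD, n = 3 each; edgeR adjusted p 8.55e-10). TNFRSF10A, the other death receptor for TRAIL, rose with a log2 fold change of 0.36 ± 0.05 (SE), beside 0.38 ± 0.04 (SE) for TNFRSF10B. CDIP1, a pro-apoptotic membrane protein, fell from 9.35 ± 0.286 to 3.17 ± 0.217 CPM (SD, n = 3 each; edgeR adjusted p 3.99e-08). THBS1, thrombospondin 1, fell with a log2 fold change of -0.87, and PMAIP1, which encodes the BCL2 family protein NOXA, with -0.26. The median of this list was 0.10.

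Of 28 genes that control p53, 27 were tested, and 6 were higher and 3 lower (33.3%, beside 38.5% over all genes tested). The split was 4 and 4 with library size alone and 5 and 4 with upper-quartile factors. It was 6 and 5 when length and GC of transcripts were corrected for. HUWE1, a ubiquitin ligase of p53, rose with a log2 fold change of 0.24 ± 0.06 (SE), PPP1R13B, a cofactor that steers p53 to death genes, with 0.32 ± 0.07, and USP7, the deubiquitinase of p53 and MDM2, with 0.12 ± 0.03. HUWE1 did not pass in the Wald test of DESeq2 (adjusted p 0.0580). USP7 missed the threshold narrowly without control replicate 1 (edgeR adjusted p 0.05004). CDKN2A, whose ARF product holds MDM2 away from p53, fell from 63.9 ± 2.09 to 48.8 ± 2.31 CPM (SD, n = 3 each; edgeR adjusted p 4.92e-06). The counts do not separate ARF from p16, the other product of CDKN2A. RPL5, a ribosomal protein that also binds MDM2, fell with a log2 fold change of -0.13 ± 0.03 (SE), and it has near-identical pseudogene copies that make its value uncertain. TP73, a relative of p53, fell with -0.27 ± 0.10 (SE; edgeR adjusted p 0.0400). Leaving out control replicate 1 (0.167) or 2 (0.147) or knockdown replicate 1 (0.0643), 2 (0.0575) or 3 (0.126) took TP73 past 0.05.

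Of 30 cell cycle genes that p53 lowers through p21, all were tested, and 14 were higher and 5 lower (11 and 8 with library size alone). The share that passed was 63.3%, beside 38.5% over all genes tested (19.3% higher and 19.2% lower). The median of the mean counts was 2337 in this list against 410 over all genes tested. Small changes are easier to call at higher counts. KIF23, a cytokinesis motor, had a log2 fold change of 0.42 ± 0.03 (SE), the kinase gene AURKA of 0.37 ± 0.03, and TOP2A, topoisomerase 2 alpha, of 0.25 ± 0.03. The replication licensing genes MCM5 (-0.28 ± 0.04) and MCM2 (-0.22 ± 0.03) fell, as did BIRC5, survivin (-0.25 ± 0.04, SE). The median of the list was 0.09.

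Of 26 FOXO targets, 9 were higher and 6 lower, and 4 of the list are also members (CDKN1A, GADD45A, BBC3 and SESN1), none of which passed. Past the threshold were 57.7% of the list, beside 38.5% over all genes tested. ERBB3, a receptor of the EGF receptor family, rose from 8.07 ± 0.675 to 21.3 ± 0.801 CPM and CDKN1B, the cell cycle inhibitor p27, from 62.6 ± 1.26 to 90.0 ± 5.00 CPM (SD, n = 3 each). TXNIP, a thioredoxin inhibitor, rose with a log2 fold change of 0.36. CCNG2, cyclin G2, fell with -1.21 and CITED2 with -0.56, besides IRS2, which belongs to the list and was the target. CDKN1B had a log2 fold change of 0.53 ± 0.05 (SE), beside -0.04 ± 0.09 for CDKN1A of the same inhibitor family, and the difference between these genes was not tested.

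Of 20 genes of apoptosis execution, 6 were higher and 5 lower (55%, beside 38.5% over all genes tested). BIRC3 and BIRC2, which encode inhibitors of apoptosis, rose with log2 fold changes of 2.01 ± 0.16 and 0.32 ± 0.05 (SE). DFFA, an inhibitor of the caspase-activated DNase, fell with -0.37 ± 0.04, and CYCS, cytochrome c, with -0.29 ± 0.03 (SE). CASP10, the relative of caspase 8 at death receptors, fell from 1.67 ± 0.379 to 0.389 ± 0.186 CPM (SD, n = 3 each) on a mean of 13.5 counts. CASP8 itself, chosen after its values were seen, had a log2 fold change of 0.16 and an edgeR adjusted p of 0.122, so it did not pass.

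**Figure D4:**
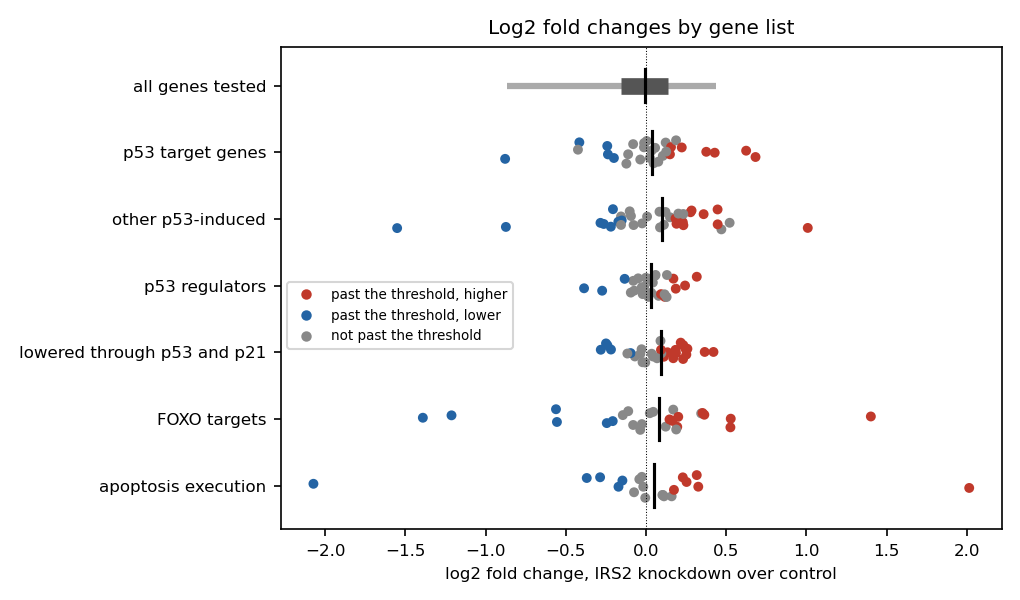
Log2 fold change of knockdown over control for each tested gene of the lists, one point per gene, red or blue where the adjusted p is under 0.05, with the list's median as a vertical line. The top bar gives all 13832 genes, from percentile 5 at -0.87 to percentile 95 at 0.44, with the thick part from -0.15 to 0.14. The p53 targets spread to both sides, with a median of 0.03.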

How the data were processed

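RNA-seq libraries of total RNA from 6 SW403 cultures, 3 control and 3 IRS2 knockdown by their titles, were compared. The authors deposited whole-number counts per gene symbol, and a second table of normalized signal, the deposited counts of each library divided by 1 constant (0.847 to 1.25). The submitters' processing notes name STAR 2.6.1a, Salmon, DESeq2 and hg19, with no role or order. The counting and strand settings are not given in the sources used here.

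Counts were tested with edgeR 4.0.16 in R 4.3.3 (TMM factors, filterByExpr, quasi-likelihood F-test, group as the only term). SE is the absolute log2 fold change over the square root of F, and 95% intervals use the test's degrees of freedom. CPM values are counts over the library total times its TMM factor, scaled per 1000000. Intervals and floors cover no more than these libraries, and amplified reads are not independent molecules. No permutation test was run, since 3 libraries against 3 allow an exact two-sided p of 0.1 at the smallest.

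Members, roles and lists were chosen with earlier results of these data known. All members are given, and of each other list the 3 genes with the smallest p in each direction past the threshold, of which some are not reported here. Gene positions and transcript lengths come from GENCODE version 44 on GRCh37, with 1 canonical transcript per gene (for FAS the longest CCDS transcript). Promoter windows come from RefSeq. Alternatives, 17 planned and 2 added after the data were seen, used limma 3.58.1 and DESeq2 1.42.0 among others. The fit was tested on simulated counts.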

Additional observations from a re-analysis of the deposited data

How the results depend on the processing

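Over 19 alternatives, 8 of the 12 called members (MDM2, FAS, TNFRSF10B, ZMAT3, XPC, AEN, BTG2 and CMBL) kept their direction and their call in each, and all 12 kept their sign. The number of members lower fell from 5 to 3 with the Wald test of DESeq2 and with an adjusted p threshold of 0.01. Over all genes tested the number lower fell from 2653 to 1848 and 1790 in the same settings. With library size alone and with upper-quartile factors 7 members were lower, beside 3198 and 3012 of all genes tested. Among genes averaging 50 counts or more, 7 members were higher and 7 lower, beside 2407 and 2339 of all such genes. The number of members lower ranged from 4 to 6 when 1 replicate was left out, with 5 higher and 6 lower without knockdown replicate 3. Over all genes tested the number lower ranged from 2144 to 2598 in these fits. The number of members higher ranged from 5 to 8 over all alternatives, and that of all genes tested from 1924 to 2994. The members' median of 0.03 was 0.0036 with library size alone, where that of all genes tested moved from -0.0039 to -0.0345, and ranged from 0.0144 to 0.0603 when 1 replicate was left out. The log2 fold change of IRS2 lay between -1.44 and -1.35. Replicate numbers are shared by the groups. Deviations of same-numbered libraries had correlations of 0.04, -0.01 and -0.10 over all genes tested, so no shared deviation was seen. These values cannot decide whether cultures were handled in pairs, since counting noise of low genes enters them. With the replicate number as a block, 4862 genes passed against 5329. There 5 members were higher and 5 lower, as TIGAR (edgeR adjusted p 0.0565) and TRIAP1 (0.0521) missed the threshold.

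In the other lists, the Wald test of DESeq2 left 3 regulators higher, 3 further p53-induced genes lower, and 5 FOXO targets higher and 3 lower. At a threshold of 0.01 there were 3 regulators higher, and 3 further p53-induced genes, 3 FOXO targets and 3 apoptosis genes lower. In both settings 8 further p53-induced genes were higher. Over all genes tested 3890 and 3714 passed in these settings, against 5329 in the main fit. Without control replicate 1 there were 3 regulators higher, 5 further p53-induced genes lower and 3 FOXO targets lower. Without control replicate 2 there were 4 further p53-induced genes lower. Over all genes tested 4593 and 4464 passed in these fits. List counts within 1.5-fold of the main fit are not repeated here. Some members that were not past the threshold in the main fit changed sign, and these passed in no fit. SESN1 was at -0.0070 with library size alone. TP53BP1 was at -0.0267 with library size alone, -0.0170 with upper-quartile factors, -0.0092 among genes averaging 50 counts or more, and -0.0248 and -0.0238 with the length and GC correction without and with the block. TP53I3 was at 0.0218 on thinned counts, 0.0079 on the normalized values, and 0.0019 and 0.0081 with that correction without and with the block. PLK2 was at 0.0046 on thinned counts. Leaving out 1 replicate gave -0.141 to 0.0144 for CDKN1A, -0.0525 to 0.384 for BBC3, -0.115 to 0.0572 for TP53I3, -0.0383 to 0.0262 for PLK2, -0.0036 to 0.189 for POLH, -0.0421 to 0.0407 for TP53BP1 and -0.0561 to 0.123 for SESN1. The causes were not tested. On counts thinned to the smallest library, BTG2 (0.59) and CMBL (-1.001), both with few counts, kept their calls.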
